A study of Mus musculus with 8 samples.

Results

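The genes followed here set the electrical state of the muscle membrane, namely Scn4a, Clcn1, Atp1b1, Chrna1, Chrnb1 and Kcnj11. Every alternative polyadenylation site (APS) that the deposited table assigns to one of these symbols was taken, which gave 37 of 56483 APSs and 6 of 15349 genes. WTTS-seq (whole transcriptome termini site sequencing), a method that sequences polyadenylated RNA from its 3′ end, was applied to gastrocnemius muscle in 8 libraries, each from 1 male mouse. There were 4 groups of 2 mice, namely AMPKα1 knockout (KO), AMPKα1 wild type (WT), AMPKα2 KO and AMPKα2 WT. AMPK is the energy-sensing protein kinase, and each KO lacks a stretch of DNA that codes for a portion of the catalytic domain of 1 of its catalytic subunits, encoded by Prkaa1 (AMPKα1) or Prkaa2 (AMPKα2). KO mice were aged about 6 weeks in the AMPKα1 model and about 8 weeks in the AMPKα2 model. The age of the WT mice is not stated, and the labels call all samples adult. All samples carry the strain label C57BL/6, whereas the methods give this strain for AMPKα2 KO and 129S2/SvPas for AMPKα1 KO. Model, age of the KO mice and strain therefore cannot be told apart when AMPKα1 and AMPKα2 libraries are set side by side. Whether the libraries of both models were prepared together is not stated. Libraries held 2311242 to 3549156 counted reads. Of these, 1.88% to 2.85% fell at APSs without a gene in the AMPKα1 libraries and 15.3% to 17.9% in the AMPKα2 libraries. Prkaa1 had 0 and 82 reads in AMPKα1 KO against 15 and 0 in AMPKα1 WT, and Prkaa2 had 40 and 71 reads in AMPKα2 KO against 87 and 62 in AMPKα2 WT, so reads of the targeted genes gave no check of the KO labels. All 11 fast and slow fibre markers examined were read in every library.

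A muscle fibre is triggered when acetylcholine opens receptors at the endplate, whose subunits include the products of Chrna1 and Chrnb1. The resulting depolarization opens the voltage-gated sodium channel of skeletal muscle, whose pore is encoded by Scn4a, and the action potential spreads into the t-tubules. Clcn1 encodes the muscle chloride channel that steadies the resting potential, Kcnj11 the pore of the ATP-sensitive potassium channel, and Atp1b1 a beta subunit of the sodium pump, which restores the sodium and potassium gradients. Mutations of Scn4a cause periodic paralysis and myotonia, and mutations of Clcn1 cause myotonia.

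The genes lie on GRCm38 at chr11:106318592-106353288 (Scn4a, gene29000, minus strand), chr6:42286685-42315756 (Clcn1, gene14173, plus strand), chr1:164437109-164458355 (Atp1b1, gene2065, minus strand), chr2:73563215-73580338 (Chrna1, gene3866, minus strand), chr11:69784036-69795943 (Chrnb1, gene27801, minus strand) and chr7:46093953-46100764 (Kcnj11, gene17985, minus strand), by the GENCODE M21 annotation. The most distal APS of Scn4a, chr11:106317547, lies 1045 bases past this annotated end but within the RefSeq gene. Scn4a had 15 APSs, Clcn1 7, Atp1b1 6, Kcnj11 5, and Chrna1 and Chrnb1 2 each. In the direction of transcription, 18 of the 37 APSs lay before the stop codon of the main transcript and 18 past it. The remaining APS, chr11:69786431, was read from the strand opposite to Chrnb1, across its intron 8.

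The poly(A) signal hexamers AATAAA and ATTAAA were searched, on the strand of the gene only, in the 30 bases upstream of each site whose bases lie within an annotated exon. Sequences are from the GENCODE M21 transcripts, on GRCm38. The first set shows the 3′ UTR sites that carried a signal, with the hexamer in capitals, written 5′ to 3′.
Atp1b1, chr1:164437113-164437142, minus strand: taacacaacggacAATAAAagaatgaacac
Atp1b1, chr1:164437294-164437323, minus strand: gtatgaAATAAAaccaaagtcacttgtttg
Atp1b1, chr1:164437816-164437845, minus strand: caacgggAATAAAactggcatggtactttt
Atp1b1, chr1:164438049-164438078, minus strand: gacaaaagaaaAATAAAaattgagccttgg
Chrna1, chr2:73565799-73565828, minus strand: ttctttcctttAATAAAtataattgtactt
Chrnb1, chr11:69784041-69784070, minus strand: gcacgtATTAAAATTAAAatgtagaaaatg
Kcnj11, chr7:46097163-46097192, minus strand: acaagtactcAATAAAtgttaactgtcgtg
Chrnb1 holds ATTAAA at 2 adjacent places. Of 10 member sites past the stop codon that could be read in the main transcript of their gene, 6 held AATAAA, 1 held ATTAAA and 3 held neither. A further 2 Clcn1 sites, chr6:42315488 and chr6:42315669, could be read only in another Clcn1 transcript, and neither held a hexamer. Over all genes, 43.7% of 11997 sites read in the main transcript held AATAAA and 13.1% held ATTAAA.

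The next set shows sites before the stop codon that results below turn on. No hexamer was found in them, so they are in lower case throughout.
Scn4a, exon 14, chr11:106330149-106330178, minus strand: atcatatcctgaaccacgtgggcctgactg
Clcn1, exon 2, chr6:42290162-42290191, plus strand: cttggatgaggaccactattctaaatgtca
Atp1b1, exon 6, chr1:164438298-164438327, minus strand: gaaagaccgttttcagggacgctttgatgt
Kcnj11, 5′ UTR, chr7:46100206-46100235, minus strand: cggaggtgacaagttctgaggtggtttgag
None of 8 member sites before the stop codon that could be read in the main transcript held either hexamer, and over all genes 1.73% of 4399 such sites held AATAAA and 1.23% held ATTAAA. These letters say only what the window holds. Downstream of 2 of the 3′ UTR sites the transcript was A-rich (in the 30 bases after the site, a run of 7 As or any 10 bases with 8 As), which is shown in capitals because reverse transcription can also start on such stretches.
Atp1b1, after chr1:164437293, chr1:164437263-164437292, minus strand: AAATAAAAATctttattttgaactttataa
Kcnj11, after chr7:46097806, chr7:46097776-46097805, minus strand: AAAAGAAATAttgggaagttcagcctggtg
Whether reads at these APSs came from internal priming was not tested.

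**Figure D1:**
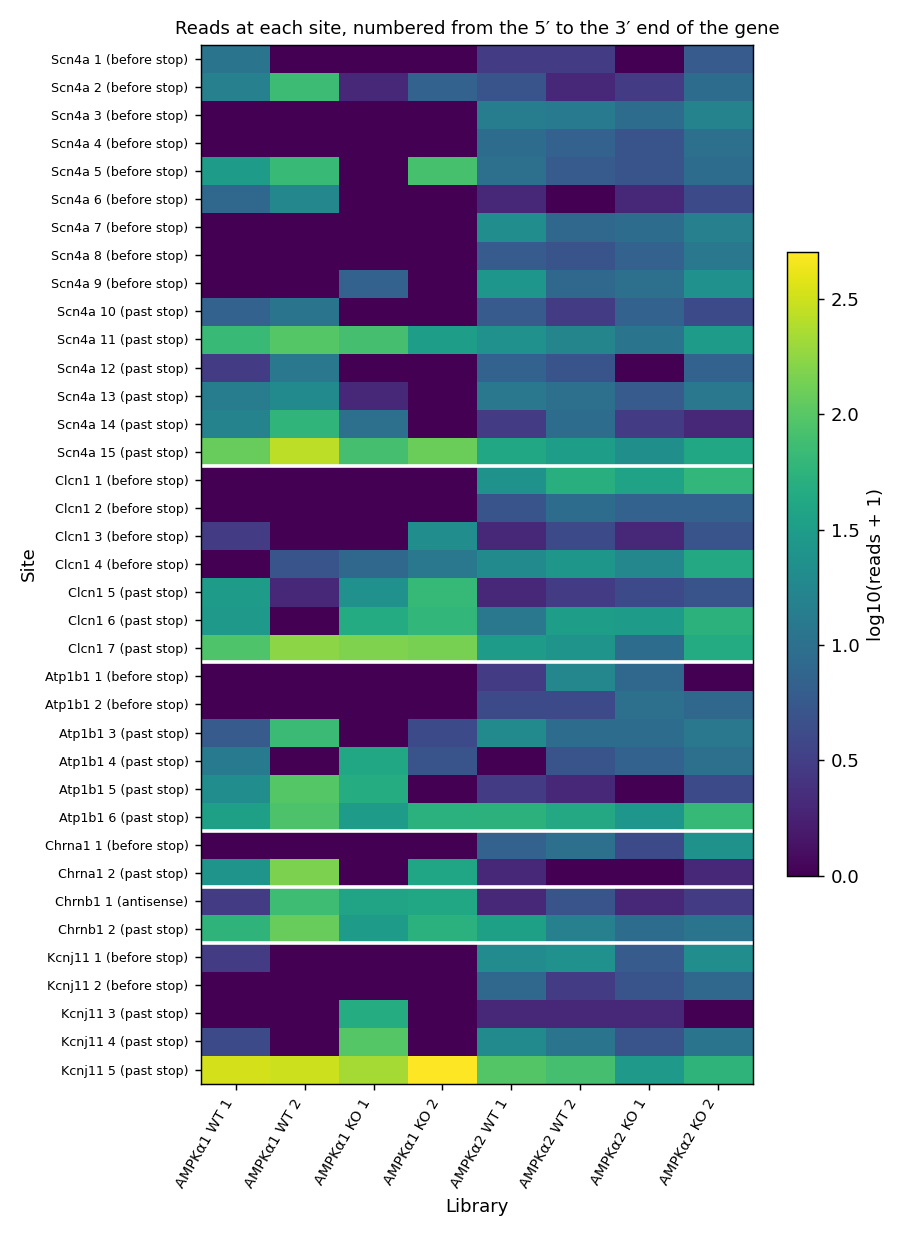
Reads at the 37 APSs in each of the 8 libraries, as log10(reads + 1), with sites of a gene (rows) numbered from its 5′ to its 3′ end and marked as before or past the stop codon. Dark cells are 0 reads, and 10 of the 18 sites before the stop codon are dark in all 4 AMPKα1 libraries.

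To ask whether loss of either subunit altered the level of these genes, reads of all APSs of a gene were summed. KO was set against WT separately in AMPKα1 and AMPKα2 with the quasi-likelihood test of edgeR, with an adjusted p under 0.1 as the threshold. Levels are CPM (reads scaled to library size) with TMM factors over the 8 libraries, where 3 reads correspond to 0.440 to 3.53 CPM depending on the library. None of the 6 genes passed the threshold in either model. In AMPKα1, 0 of 13924 genes tested were called (0%), although 589 genes, among them 1 member, Scn4a, had an unadjusted p under 0.05. In AMPKα2, 0.484% of 10536 genes were called, and 0 members had an unadjusted p under 0.05. DESeq2 also called 0 members in both models. The biological coefficient of variation was 103.5% in AMPKα1 and 26.2% in AMPKα2, so differences within AMPKα1 were measured with much less precision. In whole muscle, fewer cells of a type and less RNA per cell cannot be told apart.

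Scn4a, the sodium channel gene, had the lowest p of the 6 in AMPKα1. Its level was 27.4 and 35.4 CPM in AMPKα1 KO and 80.8 and 95.2 CPM in AMPKα1 WT, or 31.4 ± 5.60 against 88.0 ± 10.1 (SD, n = 2). Both KO mice thus lay below both WT mice. The log2 fold change was -1.51 (SE 0.45), with an adjusted p of 0.763 (edgeR). In AMPKα2 the same gene was at 101.3 and 139.4 CPM in KO and 94.1 and 100.7 CPM in WT, the KO pair lying just above the WT pair, with a log2 fold change of 0.30 (SE 0.26) and an adjusted p of 0.801. The difference between the KO effects of the models was itself tested over all 8 libraries. It was 1.79 (SE 0.49) on the log2 scale for Scn4a, with an unadjusted p of 0.00468 and an adjusted p of 0.425 (edgeR), against 0.0586% of all genes called. For the other members the adjusted p of this difference was 0.745 to 1.00.

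Clcn1, the chloride channel gene, was at 35.1 and 42.8 CPM in AMPKα1 KO and at 42.7 and 26.9 CPM in AMPKα1 WT. In AMPKα2 it was at 116.6 and 161.1 CPM in KO and at 47.0 and 127.2 CPM in WT. KO and WT overlapped in both models, with log2 fold changes of 0.14 (SE 0.51, adjusted p 0.999) and 0.69 (SE 0.44, adjusted p 0.726) by edgeR.

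Kcnj11, the potassium channel gene, was at 56.0 and 73.5 CPM in AMPKα1 KO against 98.5 and 48.1 CPM in WT, so the groups overlapped (log2 fold change -0.20, SE 0.51, adjusted p 0.999 by edgeR). In AMPKα2 it was at 48.3 and 69.7 CPM in KO and 75.2 and 101.6 CPM in WT. There both KO mice lay below both WT mice, with a log2 fold change of -0.58 (SE 0.30), an unadjusted p of 0.0778 and an adjusted p of 0.636 (edgeR).

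Atp1b1, the sodium pump subunit, was at 18.03 and 8.66 CPM in AMPKα1 KO and at 20.2 and 38.7 CPM in AMPKα1 WT. KO lay below WT by a narrow gap between KO 1 and WT 1, and the log2 fold change of -1.18 (SE 0.70) had an adjusted p of 0.763 (edgeR). In AMPKα2 it was at 64.8 and 69.7 CPM in KO and 42.2 and 66.2 CPM in WT, which overlap (0.31, SE 0.30, adjusted p 0.828 by edgeR).

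The acetylcholine receptor genes had few reads. Chrna1 was at 0 and 5.57 CPM in AMPKα1 KO, at 6.93 and 22.4 CPM in AMPKα1 WT, at 3.53 and 17.99 CPM in AMPKα2 KO and at 3.79 and 7.95 CPM in AMPKα2 WT. The value for AMPKα2 KO 1 rests on 3 reads, and no read was counted in AMPKα1 KO 1. Chrna1 therefore gave wide errors, with log2 fold changes of -2.39 (SE 1.94, adjusted p 0.836) in AMPKα1 and 1.01 (SE 0.72, adjusted p 0.735) in AMPKα2 by edgeR.

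Chrnb1, the beta subunit, was at 10.5 and 13.5 CPM in AMPKα1 KO against 16.7 and 28.9 CPM in WT. In AMPKα2 it was at 10.6 and 8.99 CPM in KO against 18.4 and 15.9 CPM in WT. On this scale KO mice lay below WT mice in both models. Its log2 fold changes were -0.96 (SE 0.69, adjusted p 0.774) and -0.84 (SE 0.44, adjusted p 0.636) by edgeR. In AMPKα1 KO, 37 of 67 and 40 of 92 reads of Chrnb1 came from the antisense APS, against 2 of 58 and 72 of 188 in AMPKα1 WT.

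In AMPKα1, Scn4a, Atp1b1, Chrna1 and Chrnb1 had both KO libraries below both WT libraries, an order found in 18.2% of all genes tested. In AMPKα2, Chrnb1 and Kcnj11 had this order (20.3% of all genes) and Scn4a the opposite one (19.3%). These orders are on the TMM scale. With library totals in place of TMM factors, KO and WT overlapped for Atp1b1, Chrna1 and Chrnb1 in AMPKα1 and for Scn4a in AMPKα2, while Scn4a in AMPKα1 and Chrnb1 and Kcnj11 in AMPKα2 kept their order. Marker levels also differed between the groups. The summed level of the 11 fibre markers was 26603 to 36939 CPM in AMPKα1 KO and 38017 to 58810 CPM in AMPKα1 WT, but 103077 to 123289 CPM in AMPKα2 KO and 80461 to 88641 CPM in AMPKα2 WT. Most of this sum came from genes of fast fibres and actin, such as the fast myosin Myh4, at 15414 and 14220 CPM in AMPKα1 KO and 21984 and 21114 CPM in AMPKα1 WT. The slow myosin Myh7 ran the other way in AMPKα1, at 1320 and 752 CPM in KO and 352 and 349 CPM in WT. In AMPKα2 it was at 1892 and 1854 CPM in KO and 466 and 1003 CPM in WT. KO thus lay above WT in both models for the slow myosin. The other slow markers, Tnni1, Tnnt1 and Myl2, overlapped between KO and WT in AMPKα1 and lay above WT in AMPKα2 KO. Myl2, for example, was at 741 and 240 CPM in AMPKα1 KO and 287 and 248 CPM in AMPKα1 WT. Myh2, Ckm and Acta1 also overlapped in AMPKα1, whereas Myh1, Actn3 and Tnnt3 lay below WT in AMPKα1 KO, as Myh4 did. The 8 Schwann cell and nerve markers, of which 7 or 8 were read in each AMPKα1 library, summed to 283 to 346 CPM in AMPKα1 KO and 401 to 748 CPM in AMPKα1 WT. Fibroblast markers summed to 5905 to 6157 CPM in AMPKα1 KO and 6464 to 8453 CPM in AMPKα1 WT, and smooth muscle markers to 47.2 to 54.9 CPM and 60.1 to 99.9 CPM. The sums of adipocyte, endothelium, macrophage and erythroid markers overlapped between KO and WT in AMPKα1. In AMPKα2, KO and WT overlapped for the sums of all these classes, from Schwann cell and nerve to erythroid. Of 6 genes of the denervation response, 4 were in the table, and they summed to 74.3 to 93.3 CPM in AMPKα1 KO, 62.4 to 70.0 CPM in AMPKα1 WT, 80.1 to 95.2 CPM in AMPKα2 KO and 72.4 to 72.5 CPM in AMPKα2 WT. The 4 denervation genes did not move alike. Hdac4, which had the most reads of the 4 in every library, lay above WT in KO of both models. Runx1 lay below WT in AMPKα2 KO, with 3 and 9 reads against 26 and 14. Gadd45a overlapped in both models, and Ncam1 overlapped in AMPKα1. The part of these markers in the levels of the 6 genes was not tested, and none of the marker genes passed the threshold in KO against WT.

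**Figure D2:**
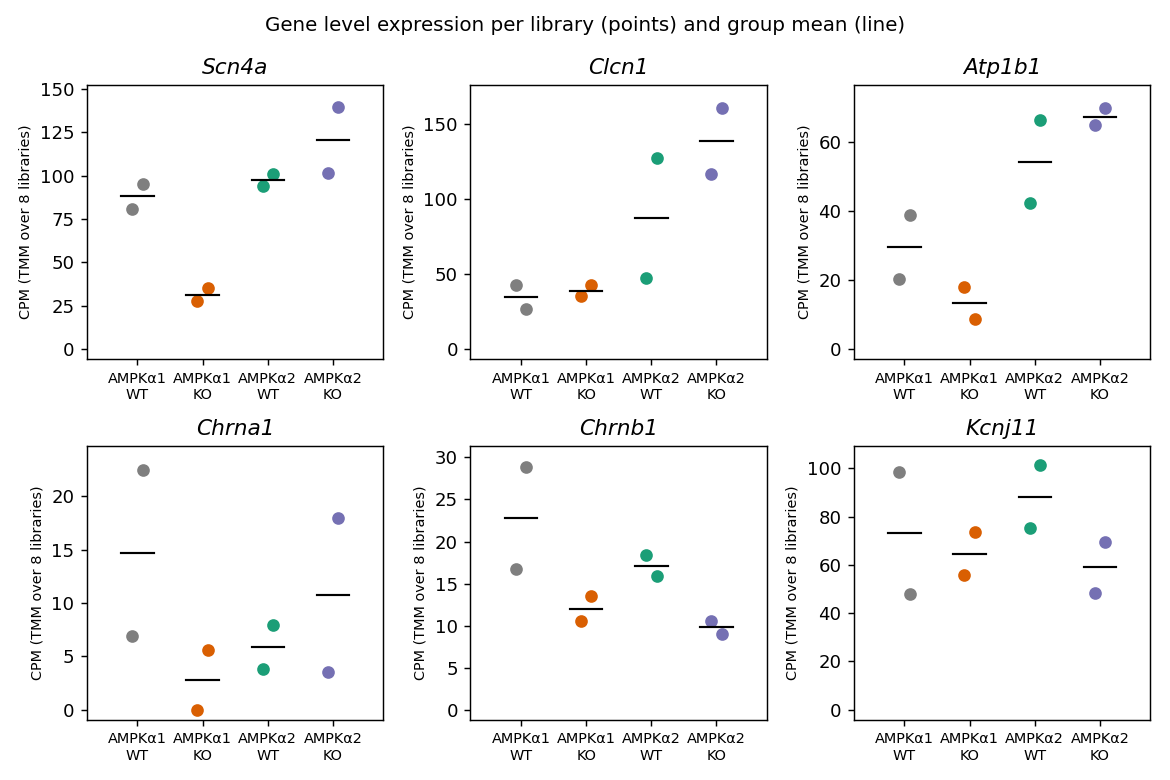
Gene level CPM (TMM over 8 libraries, y axis, from 0) of the 6 genes in each library, with a line at the mean of each group of 2 mice. Scn4a shows the widest gap in AMPKα1, from 27.4 and 35.4 CPM in KO to 80.8 and 95.2 CPM in WT, whereas KO and WT of Clcn1 overlap in both models.

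**Figure D3:**
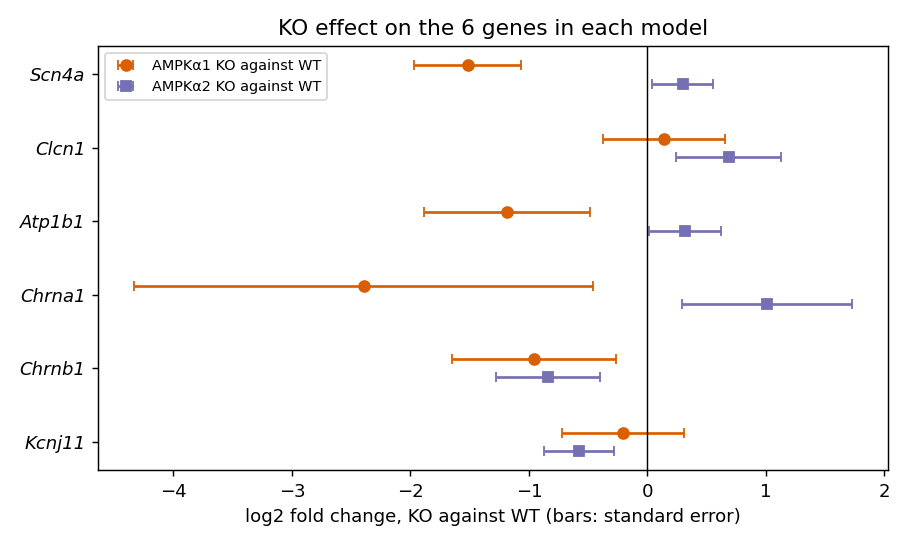
Log2 fold change of KO against WT for the 6 genes in AMPKα1 (circles) and AMPKα2 (squares), with bars of 1 standard error. Estimates run from -2.39 to 0.14 in AMPKα1 and from -0.84 to 1.01 in AMPKα2, and none passed the threshold.

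The sites were then tested one by one and as shares of their gene. Of the 37 APSs, 23 in AMPKα1 and 27 in AMPKα2 had the 16 reads needed over the 4 libraries, and none was called in KO against WT (edgeR adjusted p 0.543 to 1.00 and 0.667 to 0.990). No member APS had an unadjusted p under 0.05 in either model, and DESeq2 also called none. The background was 0.00454% of 44024 APSs in AMPKα1 and 0.056% of 23218 APSs in AMPKα2. The lowest p belonged to the most distal APS of Scn4a, chr11:106317547, with 79 and 122 reads in AMPKα1 KO and 118 and 272 reads in AMPKα1 WT (unadjusted p 0.0617, edgeR). The most proximal Atp1b1 site of the 3′ UTR, chr1:164438048, had 0 and 3 reads in AMPKα1 KO and 5 and 68 reads in WT, where 1 WT mouse held most of its reads. Among the alternatives run, it was called only when all 8 libraries shared the fit (adjusted p 0.0809, edgeR).

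Use of the sites within a gene, tested by edgeR's diffSpliceDGE, did not pass the threshold between KO and WT for any of the 5 members that could be tested in AMPKα1 (adjusted p 0.730 to 1.00) or the 4 in AMPKα2 (adjusted p 1.00). No member had an unadjusted p under 0.05 there, and 0.0262% and 0.182% of all genes were called. Chrna1 could not be tested in either model because only 1 of its sites had enough reads.

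Between AMPKα1 and AMPKα2 libraries, in contrast, the same test called 5 of the 6 members, beside 34.2% of 8824 genes. The test was added after the values were seen. The adjusted p was 1.40e-06 for Clcn1, 6.41e-05 for Scn4a, 0.000410 for Kcnj11, 0.000809 for Chrna1 and 0.0338 for Atp1b1, and it was 0.709 for Chrnb1, whose test sets its only sense site against the antisense APS. The call of Atp1b1 was lost without AMPKα1 WT 2 (adjusted p 0.122, edgeR), AMPKα2 KO 1 (0.647) or AMPKα2 WT 2 (0.135). At a mean of at least 50 reads per site, 247 genes were called, but no member had enough sites left to be tested. Of the 37 member APSs 16 were called (19.2% of all APSs). Of these, 13 took a larger share in AMPKα2, all 13 lying before the stop codon, and 3 took a smaller share, all 3 lying past it. The 13 include the 10 member sites with 0 reads in all 4 AMPKα1 libraries. Those 10 reached the 16 reads needed only through AMPKα2, so they could only take a larger share there. The gene calls of Scn4a, Clcn1, Chrna1 and Atp1b1 took their p from such sites. That of Kcnj11 came from chr7:46100435, which had 2 reads in AMPKα1 WT 1 and no read in the other AMPKα1 libraries. The calls of these sites and genes are thus a description.

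Clcn1 shows the pattern most plainly. Its first APS, in intron 1 at chr6:42286960, had 0 reads in the 4 AMPKα1 libraries, 35 and 60 reads in AMPKα2 KO and 23 and 50 reads in AMPKα2 WT. Its second, in exon 2 at chr6:42290192, had 0 reads in AMPKα1 and 4 to 8 reads in each AMPKα2 library. Its last APS, at chr6:42315760, had 150 and 138 reads in AMPKα1 KO, 90 and 170 in AMPKα1 WT, 8 and 45 in AMPKα2 KO and 29 and 24 in AMPKα2 WT. The 5′ sites were thus read in both genotypes of AMPKα2 and in neither genotype of AMPKα1. The share of sense reads of Clcn1 that ended before the stop codon was 3.13%, 10.6%, 1.35% and 2.29% in AMPKα1 KO 1, KO 2, WT 1 and WT 2, and 59.6%, 52.1%, 52.9% and 60.4% in the AMPKα2 libraries in the same order.

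For Scn4a the separation was narrower. Its APSs in intron 1 (chr11:106349100) and exon 14 (chr11:106330148 and chr11:106330074) had 0 reads in AMPKα1. In AMPKα2 the exon 14 site at chr11:106330148 gave 8 and 14 reads for KO and 20 and 7 for WT, and the intron 1 site gave 4 and 9 for KO and 8 and 6 for WT. An APS in intron 10 (chr11:106340942) ran differently, with 0 and 82 reads in AMPKα1 KO, 29 and 67 in AMPKα1 WT and 4 to 9 in each AMPKα2 library. The APSs chr11:106360265 and chr11:106360444, upstream of the main transcript but within the RefSeq gene, also count as before the stop codon. At chr11:106360265 there were 1 and 6 reads in AMPKα1 KO, 14 and 70 in AMPKα1 WT and 1 to 8 in each AMPKα2 library. The share before the stop codon was 4.0% and 36.5% in AMPKα1 KO, 21.4% and 24.9% in AMPKα1 WT, 48.8% and 51.1% in AMPKα2 KO and 38.6% in AMPKα2 WT 2, and in AMPKα2 WT 1 it was 87 of 174 reads. Every AMPKα2 library lay above every AMPKα1 library, but AMPKα1 KO 2 (95% Wilson interval 30.7% to 42.8%) and AMPKα2 WT 2 (30.2% to 47.8%) were within counting error of each other.

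Most reads of Kcnj11 ended at chr7:46097162, which follows its AATAAA, with 214 and 501 reads in AMPKα1 KO, 336 and 313 in AMPKα1 WT, 27 and 56 in AMPKα2 KO and 94 and 80 in AMPKα2 WT. Its 2 APSs before the stop codon, at chr7:46100205 in the 5′ UTR and at chr7:46100435 upstream of the main transcript, together had 2 of 1512 sense reads in AMPKα1 and 86 of 388 in AMPKα2. The share before the stop codon was 18.7% to 29.0% in the AMPKα2 libraries and at most 0.587% in the AMPKα1 libraries. In AMPKα1 KO 1, 97 and 46 reads ended at the proximal 3′ UTR sites chr7:46097806, which precedes the A-rich stretch shown above, and chr7:46098110. The other AMPKα1 libraries had 0 to 3 reads there.

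Atp1b1 had 0 of 496 sense reads before the stop codon in AMPKα1, which allows a share of up to 0.605%, and 29.1%, 7.53%, 6.41% and 26.7% in AMPKα2 KO 1, KO 2, WT 1 and WT 2. Within AMPKα2, mice of a genotype differed more than the means of the genotypes did. Within the 3′ UTR, the APS at chr1:164437293, ahead of the A-rich stretch, took a smaller share in AMPKα2 (edgeR adjusted p 0.0384), with 46 and 0 reads in AMPKα1 KO, 20 and 97 in AMPKα1 WT, and 0, 3, 2 and 1 in AMPKα2. The distal site at chr1:164437112 was read in every library, at 29 and 52 in AMPKα1 KO, 33 and 87 in AMPKα1 WT, 25 and 63 in AMPKα2 KO and 53 and 42 in AMPKα2 WT.

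The 2 APSs of Chrna1 were used in nearly separate sets of libraries. The site after AATAAA in the 3′ UTR, chr2:73565798, had 0 and 38 reads in AMPKα1 KO, 24 and 146 in AMPKα1 WT, 0 and 1 in AMPKα2 KO and 1 and 0 in AMPKα2 WT. The site in intron 7, chr2:73567300, had 0 reads in the 4 AMPKα1 libraries, 3 and 23 in AMPKα2 KO and 6 and 9 in AMPKα2 WT. In AMPKα2, 41 of 43 reads of the gene thus ended within the intron, and the gene level of Chrna1 is a count of different ends in the 2 models. Chrnb1 had 0 of 254 and 0 of 65 sense reads before its stop codon in AMPKα1 and AMPKα2, which allows up to 1.18% and 4.62%. Such intervals and limits cover counting error only, because the reads carry no molecular identifiers and PCR copies of a molecule count separately.

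A shift in this direction was also seen in the pooled reads of all genes, though not in most genes taken singly. Over all genes, 13.7% to 21.4% of sense reads fell before the stop codon in the AMPKα1 libraries and 44.4% to 56.4% in the AMPKα2 libraries. Of 4 members with sites of both kinds and a read in every library, Scn4a, Clcn1, Atp1b1 and Kcnj11, 4 had every AMPKα2 library above every AMPKα1 library, an order found in 21.4% of 4283 such genes, the opposite order being found in 5.21%. Of the 18 member APSs before the stop codon, 10 (55.6%) had 0 reads in all 4 AMPKα1 libraries, against 16.3% of such APSs over all genes, whereas 0 of the 18 past it did (3.52% over all genes). The table keeps an APS only from 16 reads over the 8 libraries, so these sites are in it through their AMPKα2 reads, and the counts are a description. All Atp1b1 sites before the stop codon are among them, so Atp1b1 could not show the opposite order. The order of the 4 members is thus a description too. No member APS had 0 reads in all 4 AMPKα2 libraries. Over all genes this held for 11.4% of APSs, for 13.0% of those before the stop codon and 4.77% of those past it. Model, age of the KO mice and strain cannot be told apart as the source of this shift. Nor can any difference in preparation, since it is not stated whether the libraries of both models were prepared together.

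**Figure D4:**
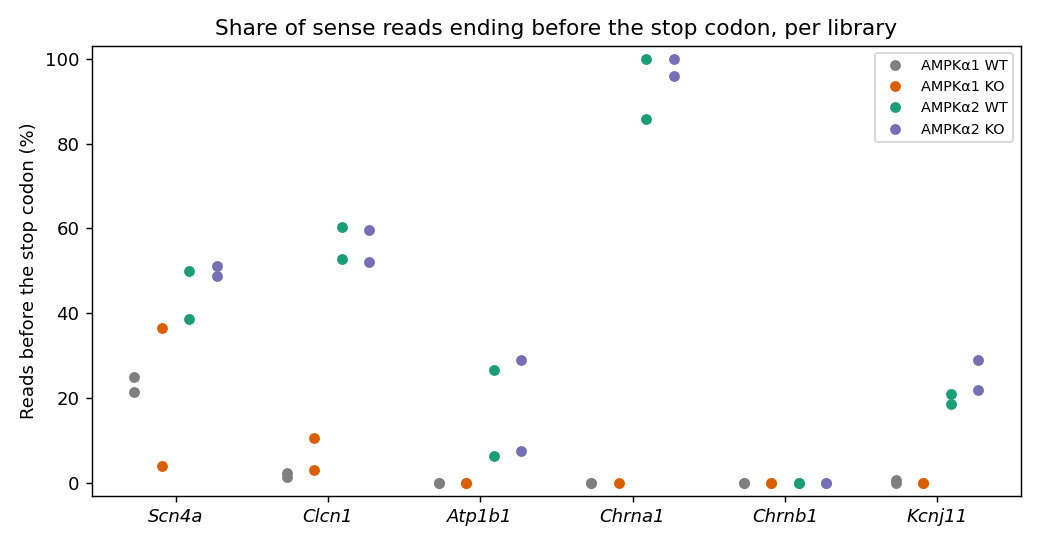
Percent of sense reads of each gene that ended before the stop codon, one point per library, by group. AMPKα2 libraries lie above AMPKα1 libraries for all genes but Chrnb1, which is at 0 in all 8, and Chrna1 has no point for AMPKα1 KO 1, which had no read.

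Gene levels between the models depended on the scale. With TMM factors, which ran from 1.53 to 2.14 in AMPKα1 and from 0.403 to 0.624 in AMPKα2, 3 members were higher in AMPKα2 (25.6% of all genes were called, 18.1% higher and 7.51% lower), but on library totals the direction turned for these 3. The log2 differences were 1.04 (SE 0.24, adjusted p 0.0154, edgeR) for Scn4a, 1.58 (SE 0.36, adjusted p 0.0137) for Clcn1 and 1.60 (SE 0.37, adjusted p 0.0142) for Atp1b1. With library totals they were -0.74, -0.20 and -0.21, as the median of all genes moved by -1.73, and Scn4a (adjusted p 0.0986, edgeR), Chrnb1 (-2.17, adjusted p 0.00483) and Kcnj11 (-1.68, adjusted p 0.00441) were called lower. Relative to the median of all genes, the differences of Scn4a, Clcn1 and Atp1b1 were 1.04, 1.57 and 1.60 under TMM and 0.99, 1.52 and 1.52 under library totals. Of all calls, 70.7% were higher in AMPKα2 under TMM and 17.5% under library totals. On the TMM scale, Kcnj11 (0.07, SE 0.31), Chrnb1 (-0.36, SE 0.40) and Chrna1 (0.31, SE 1.07) did not differ between the models beyond their spread. Fibre markers were also higher in AMPKα2 on this scale, at 80461 to 123289 CPM against 26603 to 58810 CPM, and the part of this in the members' levels was not tested.

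A list of 59 further genes of the muscle membrane, endplate and t-tubule was examined, of which 51 were in the table. In AMPKα1, 0 of 50 tested were called by edgeR and 2 had an unadjusted p under 0.05, with a median log2 fold change of -0.09 against -0.03 for all genes. In AMPKα2, 0 of 43 tested were called and 3 had an unadjusted p under 0.05, 29 values were positive and 14 negative, and the median was 0.13 against -0.0044 for all genes. At APS level 0 of 341 and 0 of 165 tested sites of the list were called. The genes with the lowest p in AMPKα1, all at an adjusted p of 0.763, were Clcn4, a chloride/proton exchanger (-1.46, SE 0.48), Kcnc4, a voltage-gated potassium channel (-2.13, SE 0.88), Atp1b2, another beta subunit of the sodium pump (-0.86, SE 0.38), and Kcnk6, a two-pore potassium channel with 0 reads in both KO mice and 6 and 23 in WT. In AMPKα2 they were Kcnj8, a pore of ATP-sensitive potassium channels (-1.01, SE 0.42, adjusted p 0.560), Cacna2d1, a subunit of the t-tubule calcium channel (0.57, SE 0.24, adjusted p 0.570), Slc12a2, a sodium, potassium and chloride cotransporter (0.90, SE 0.40, adjusted p 0.577), and Dysf, a membrane repair protein (-0.82, SE 0.38, adjusted p 0.611). Between the models, 6 of 51 were higher and 6 lower in AMPKα2 on the TMM scale, where 18.1% of all genes were higher and 7.51% lower.

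By mean CPM on the TMM scale, the groups ran from lowest to highest as AMPKα1 KO, AMPKα1 WT, AMPKα2 WT and AMPKα2 KO for Scn4a (31.4, 88.0, 97.4 and 120.3) and for Atp1b1 (13.3, 29.5, 54.2 and 67.2). The 2 WT groups of Scn4a overlapped, as did the 2 AMPKα2 groups of Atp1b1, and the other neighbours did not. For Clcn1 the order was AMPKα1 WT, AMPKα1 KO, AMPKα2 WT and AMPKα2 KO (34.8, 39.0, 87.1 and 138.8), with overlap within each model and none between them. For Chrnb1 it was AMPKα2 KO, AMPKα1 KO, AMPKα2 WT and AMPKα1 WT (9.80, 12.0, 17.1 and 22.8), where the 2 KO groups overlapped, the 2 WT groups overlapped, and a gap lay between KO and WT. For Kcnj11 it was AMPKα2 KO, AMPKα1 KO, AMPKα1 WT and AMPKα2 WT (59.0, 64.7, 73.3 and 88.4), and for Chrna1 AMPKα1 KO, AMPKα2 WT, AMPKα2 KO and AMPKα1 WT (2.79, 5.87, 10.8 and 14.7), with overlap between all neighbours of both genes. With library totals the order changed for all 6 genes. AMPKα1 WT was then highest for Scn4a (154 CPM, against 56.4 to 64.1 CPM in the other groups), Atp1b1 (53.1 against 26.5 to 34.2), Chrnb1 (40.9 against 4.87 to 24.5) and Chrna1 (27.1 against 3.32 to 6.18). AMPKα1 KO was highest for Clcn1 (79.4 against 48.9 to 72.5) and Kcnj11 (132 against 30.9 to 122), and the libraries of the 2 models overlapped for Clcn1.

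The genes whose levels followed each member most closely were found by Pearson's correlation of log2(CPM + 1) over the 8 libraries, among genes with a mean of at least 10 CPM. The libraries share model, depth and scaling, so the values are descriptions. They were Cd99l2 (0.98), Gatc (0.98) and Gtdc1 (0.97) for Scn4a, Tle3 (0.99), Msh3 (0.97) and Defb14 (0.96) for Clcn1, and Cox5b (0.99), Hdlbp (0.98) and Col15a1 (0.97) for Atp1b1. For Chrna1 they were Zfp512b (0.93), Snrnp200 (0.91) and Pitpnb (0.90), for Chrnb1 Zfp512 (0.97), Herpud2 (0.96) and Lrrc58 (0.95), and for Kcnj11 Ddb1 (0.92), Srsf2 (0.92) and Ltbp4 (0.91). No member was among the closest genes of another member.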

How the data were processed

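Total RNA of gastrocnemius muscle was made into WTTS-seq libraries, 1 per mouse, and sequenced on an Ion PGM. Per the methods, the authors filtered and trimmed the reads, mapped them with TMAP to the mouse genome (GRCm38.p5 per the labels), clustered read ends into APSs and assigned them to genes. The deposited values are raw read counts per APS, not normalized, and the smallest sum of an APS is 16 reads. With 2 mice per group, values rest on separate mice, and strand is kept by the method.

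APS counts were summed per gene symbol. KO and WT were compared within a model, and models over 8 libraries, with edgeR 4.0.16 (limma 3.58.1, R 4.3.3): TMM factors, robust quasi-likelihood fit, at least 16 reads over the libraries of a fit, Benjamini-Hochberg adjusted p under 0.1. Standard errors are approximate (log2 fold change over the root of F). Site use was tested with diffSpliceDGE. DESeq2 1.42.0, which the authors used, other scalings and filters, a replicate block and leaving out each library were alternatives. The code was tested on simulated counts. Locations and sequences came from GENCODE M21, whose build is that of the files, and in parts of Scn4a, Clcn1 and Kcnj11 its main transcript is shorter than the RefSeq gene, so that APSs outside it still lie within the gene. Tables and figures were made in Python 3.11.15 (matplotlib 3.10.9, scipy 1.17.1, pandas 2.3.3, numpy 2.4.6).

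The rule for named genes took all members, Prkaa1 and Prkaa2, the 4 genes of the further list with the lowest p in each model, and the 3 genes most correlated with each member. Single APSs were picked for description after their values were seen. Members and lists were chosen with earlier results of these data known. KO and WT mice with the same number are different animals, and the correlation of their deviations was 0.06 in AMPKα1 and -0.02 in AMPKα2. The sequence at 1 Scn4a APS is not reported here.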

Additional observations from a re-analysis of the deposited data

How the results depend on the processing

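None of the 6 genes was called in KO against WT at gene level, in APS use or by DESeq2 under any alternative run, and 1 member APS was called in 1 setting at APS level in AMPKα1 (1, all 8 libraries in the fit, the Atp1b1 site at chr1:164438048). The numbers over all genes moved more. At gene level in AMPKα1 0 genes were called, but 115 by DESeq2 and 97 with all 8 libraries in the fit. In AMPKα2 51 were called, against 161 with library totals, 376 without a filter, 4 with all 8 libraries, 31 without robust estimation, 77 with a replicate block and 26 at an adjusted p under 0.05. For the difference of the KO effects 9 were called, against 171 by DESeq2, 1 with library totals, 0 with a replicate block, 0 at an adjusted p under 0.05 and 21 with sense APSs only. Between the models 3936 were called, and 8066 with library totals. At APS level 2 were called in AMPKα1, against 218 by DESeq2, 48 with library totals, 4 without a filter, 0 at a mean of at least 50 reads and 1566 with all 8 libraries. In AMPKα2 13 APSs were called, against 96 by DESeq2, 42 with library totals, 557 without a filter, 2 with all 8 libraries, 519 with a replicate block and 8 at an adjusted p under 0.05. For site use, a mean of at least 50 reads gave 4 genes in AMPKα1, 2 in AMPKα2 and 247 between the models. In the last, no member had enough sites left to be tested. With the replicate block, 0 genes were called in AMPKα1. The replicate block is no true pairing here, since the mice differ, and it changed no call of a member.

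Leaving out 1 library at a time called 0 to 0 genes in AMPKα1, 29 to 89 in AMPKα2, 0 to 542 for the difference of the KO effects and 2339 to 5543 between the models. At APS level it gave 0 to 170 and 0 to 76, and for site use 0 to 2, 1 to 15 and 2072 to 3533. Members called ranged from 0 to 1 for the difference of the KO effects, where without AMPKα1 KO 2 the AMPKα1 KO group held only the library with 0 Chrna1 reads and Chrna1 was called (adjusted p 0.0686, edgeR), and from 4 to 5 for site use between the models, where Atp1b1 was lost without AMPKα1 WT 2 (adjusted p 0.122), AMPKα2 KO 1 (0.647) or AMPKα2 WT 2 (0.135). They ranged from 3 to 4 for levels between the models, Chrna1 being called without AMPKα1 KO 2 (3.32, adjusted p 0.0412). A lone library is assumed to vary like the others of the fit. Without 1 library the log2 fold change of Scn4a stayed between -1.74 and -1.32 in AMPKα1, between 0.06 and 0.49 in AMPKα2 and between 1.54 and 2.01 for their difference.

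Some small differences changed sign. In AMPKα1 KO against WT, Kcnj11 was 0.12 with library totals and ran from -0.60 to 0.40, and Clcn1 from -0.13 to 0.51, when 1 library was left out. In AMPKα2, Chrna1 ran from -0.65 (without KO 2) to 1.65. Between the models on library totals Scn4a was -0.74 (adjusted p 0.0986), Clcn1 -0.20, Atp1b1 -0.21, Chrna1 -1.49 and Kcnj11 -1.68, the median of all genes having moved. There Kcnj11 was -0.018 by DESeq2 and -0.018 with DESeq2 size factors in edgeR, and Chrnb1 was 0.19 with sense APSs only. When 1 library was left out, Kcnj11 ran from -0.14 to 0.29 and Chrna1 from -0.50 (without AMPKα2 KO 2) to 3.32. The cause of these changes was not tested, except that library totals moved all genes. Depth limits Chrna1 and Chrnb1 most, with 43 and 65 sense reads in AMPKα2.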
